A study of Mus musculus with 6 samples.

Results

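CD4 and CD8 are the coreceptors of T cells: CD4 binds MHC class II, CD8 binds MHC class I, and both bring the kinase Lck to the T cell receptor. The transcripts described here are those of the coreceptor genes Cd4, Cd8a and Cd8b1 and of 6 factors known to switch them, Zbtb7b, Runx3, Runx1, Cbfb, Patz1 and Satb1. They were chosen by symbol, and each of the 9 symbols matched a single row among the 47643 genes of the count table. The samples were NKT1 cells, the T-bet-expressing subset of invariant natural killer T (iNKT) cells, whose nearly fixed T cell receptor recognises lipids on CD1d. The cells were obtained from BALB/c mice of wild-type genotype, by flow cytometric sorting of thymus cells into CD4-positive and CD4-negative cells, with 3 RNA libraries of each. The labels name no treatment, and the age or number of animals behind a library is not given in the sources used here. With this comparison the study asked which transcripts differ between iNKT cells that carry or lack the CD4 coreceptor.

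In conventional thymocytes the choice between the CD4 and CD8 lineages is set by 2 opposed factors. ThPOK, encoded by Zbtb7b, holds cells in the CD4 lineage and represses Runx3 and the CD8 genes. Runx3, which binds DNA together with its partner Cbfb, silences Cd4 and activates the CD8 genes. Mouse iNKT cells pass through a stage with both coreceptors, then lose CD8 and become CD4-positive or negative for both, and they are known for expressing ThPOK.

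Totals per library were 40480463 to 53145848 counts, and 12760 genes had enough counts to be tested, all 9 coreceptor genes and regulators among them. Levels are CPM (counts relative to the library total, scaled between libraries by TMM, a method that assumes most genes do not change). CD4-negative replicate 3 stood apart. It had the smallest total (40480463 counts) and the fewest genes with a count (13787, against 15293 to 16267). Its mean correlation of log2 levels with the other libraries was the lowest (0.944, against 0.963 to 0.970), so results that rest on it are also given without it. Mitochondrial genes held 1.33% of its counts and 1.35% of those of CD4-positive replicate 1, against 3.51% to 5.19% in the remaining libraries. Trav11, the variable segment of the invariant receptor, was detected in all 6 libraries, at 22.4 to 97.7 CPM in CD4-positive and 3.71 to 18.3 CPM in CD4-negative libraries. Every CD4-positive library was thus above every CD4-negative one, as in 4.84% of all tested genes. The log2 difference was 2.14 (SE 0.69) and did not pass edgeR's quasi-likelihood test (unadjusted p = 0.0165, adjusted p = 0.727). The estimated counts of Trav11 were fractional in 100% of libraries, a sign of reads split between genes.

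RefSeq start-site windows (GRCm38.p6, 250 bases before to 50 bases after the start) were found for 7 of the 9 genes, as 15 windows. Cd4 and Cd8b1 had no entry. The core motif of Runx factors, TGTGGT, searched on both strands, lay in 3 of these 15 windows, 1 each of Zbtb7b, Runx3 and Runx1. It was held by 16.8% of all 32851 windows. The second form of the core, TGCGGT, lay in 1 window, that of Cd8a, and in 6.45% of all windows. Each hit is a match of letters, not a binding site. The distal windows of Runx3 and Runx1 held the motif as a close pair, and the third Runx gene, Runx2, was searched after this was seen. The 3 stretches are shown because all 3 Runx genes held the pair; capitals mark the motif on the complementary strand.
Runx3 (chr4:135120505-135120529, plus strand): ccctcaACCACAgaACCACAaggcc
Runx1 (chr16:92826028-92826052, minus strand): taaacaACCACAgaACCACAagttg
Runx2 (chr17:44814586-44814610, minus strand): caaacaACCACAgaACCACAagtgc
The shared 15-base run, from the first to the last motif with the preceding base, occurred in 4 of the 32851 windows on either strand. These were the 3 Runx genes and Gm16225, whose window overlaps that of Runx3. The printed stretch began 140 bases before the start site in Runx3, and 22 and 17 bases after it in Runx1 and Runx2. Gene-level counts do not separate transcripts of the distal promoter from those of the proximal one.

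The upstream part of the Cd8a window, shown because it is the coreceptor promoter that the table holds, had neither form of the core (no letters are in capitals).
Cd8a (chr6:71373177-71373426, plus strand): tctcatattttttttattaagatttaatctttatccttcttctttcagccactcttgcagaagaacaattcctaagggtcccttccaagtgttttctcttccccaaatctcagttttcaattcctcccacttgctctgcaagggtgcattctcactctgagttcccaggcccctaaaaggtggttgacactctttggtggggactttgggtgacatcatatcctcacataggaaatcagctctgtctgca
The match to TGCGGT in Cd8a lay 43 bases after the start, on the complementary strand.

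Of the 9 genes Cd4 alone passed edgeR's quasi-likelihood test at an adjusted p under 0.05, and it was the gene of the sort marker. Over all tested genes 0.212% passed in either direction. Cd4 (chromosome 6, 124864692 to 124888221, GRCm38) stood at 508, 401 and 450 CPM in CD4-positive replicates 1, 2 and 3 and at 16.0, 10.9 and 41.2 CPM in the CD4-negative ones. The groups lay far apart, with every CD4-positive library above every CD4-negative library. The difference was 4.32 on the log2 scale (SE 0.52, adjusted p = 0.0330 by edgeR's quasi-likelihood test). It was 5.08 (SE 0.27, adjusted p = 0.00298) without CD4-negative replicate 3, and 5.08 among the replicate 1 and 2 libraries, which share a naming scheme. The call did not survive leaving out any other library (adjusted p between 0.0641 and 0.212), although the log2 difference was at least 3.99 each time. With the naming scheme as a term the adjusted p was 0.0532.

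**Figure D1:**
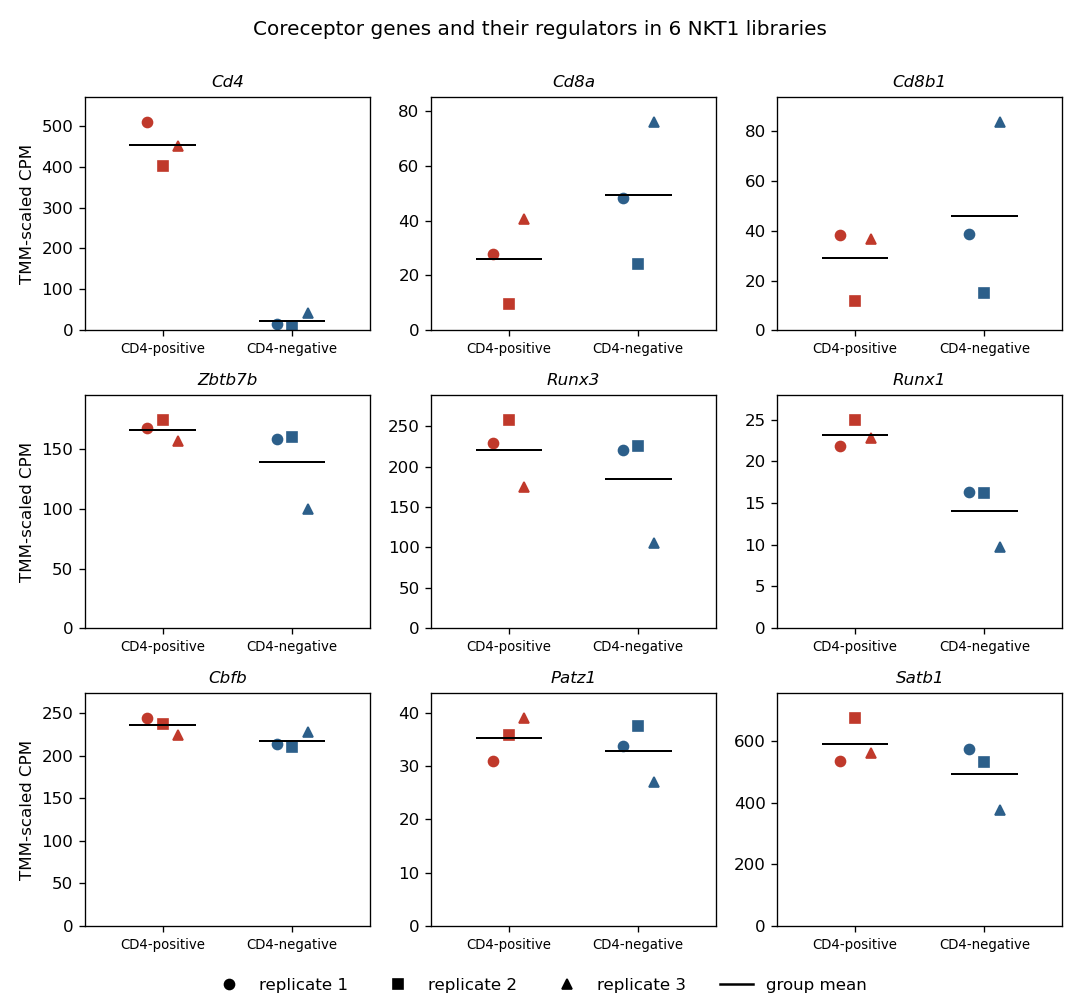
TMM-scaled CPM (vertical axes, from 0) of the 9 genes in each CD4-positive (red) and CD4-negative (blue) library; marker shapes give the replicate and bars the group means. Only Cd4 and Runx1 have groups that do not overlap, and CD4-negative replicate 3 is the lowest of the 6 libraries for Zbtb7b, Runx3, Runx1, Patz1 and Satb1.

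CD4-negative libraries still held Cd4 transcripts. Relative to the CD4-positive mean of 453 CPM the remaining Cd4 was 3.53%, 2.41% and 9.11% in replicates 1, 2 and 3, from 743, 589 and 1580 counts. Exact 95% Poisson intervals, which cover counting error only, ran from 14.9 to 17.2, from 10.04 to 11.8 and from 39.2 to 43.3 CPM. Replicate 3 thus had the most Cd4 and replicate 2 the least, by more than counting error. In these bulk libraries a few cells with much Cd4 RNA and many cells with little cannot be told apart.

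Both CD8 genes were detected in every library of both groups. Cd8a (chromosome 6, 71373427 to 71379173) encodes the alpha chain, which can pair with itself or with the beta chain. It stood at 28.0, 9.78 and 40.6 CPM in CD4-positive replicates 1, 2 and 3 and at 48.4, 24.0 and 75.8 CPM in CD4-negative ones. The groups overlapped, although the CD4-negative library was the higher one at each replicate number. The log2 difference was -0.92 (SE 0.56, edgeR adjusted p = 1.0). It was -0.47 without CD4-negative replicate 3, -0.52 without CD4-positive replicate 2, and -0.94 among the replicate 1 and 2 libraries.

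Cd8b1 encodes the beta chain, found on conventional CD8 T cells and thymocytes, and lies 35.93 kb from Cd8a on the same strand (71322788 to 71337494). Its levels were 38.3, 11.7 and 36.7 CPM in CD4-positive and 38.9, 14.9 and 83.7 CPM in CD4-negative libraries. Here the 2 replicate 1 libraries were nearly level, and the CD4-negative replicate 3 library stood well above all others. The log2 difference of -0.66 (SE 0.65, edgeR adjusted p = 1.0) became 0.11 without that library, and was -0.10 among the replicate 1 and 2 libraries.

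The order of the libraries was shared by the 3 coreceptor genes in the CD4-negative group, and in part in the CD4-positive group. Among the CD4-negative libraries replicate 3 was highest, replicate 1 next and replicate 2 lowest for Cd4, Cd8a and Cd8b1 alike. Among the CD4-positive libraries replicate 2 was the lowest for all 3 genes, but replicate 1 was the highest for Cd4 and Cd8b1 and replicate 3 for Cd8a. Counts of Cd4 per count of Cd8a were 0.330, 0.453 and 0.544 in CD4-negative replicates 1, 2 and 3, and 18.2, 41.0 and 11.1 in the CD4-positive ones. Counts of Cd4 per count of Cd8b1 were 0.411, 0.732 and 0.493 in CD4-negative libraries. The Cd4 that remained in the CD4-negative libraries was therefore below the level of each CD8 gene in all 3 of them, and its order over these libraries was the same as theirs. Counts of Cd8b1 per count of Cd8a were 1.37, 1.199 and 0.903 in CD4-positive and 0.803, 0.620 and 1.10 in CD4-negative libraries, so the ratio overlapped between the groups through CD4-negative replicate 3 alone.

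Immature thymocytes carry both coreceptors, and the summed level of their markers had the same order of libraries as Cd8a in both groups, and as Cd4 and Cd8b1 in the CD4-negative group. A list of 10 of their markers (Cd8b1 left out) summed to 24.9, 18.8 and 90.1 CPM in CD4-positive replicates 1, 2 and 3 and to 33.6, 20.9 and 76.3 CPM in CD4-negative ones. Replicate 3 was the highest and replicate 2 the lowest in both groups. The sizes ran less alike than the order. CD4-positive replicate 3 had the highest sum of all 6 libraries, but its Cd8a (40.6 CPM) was below that of CD4-negative replicate 1 (48.4 CPM). Its Cd8b1 (36.7 CPM) was below that of CD4-positive replicate 1 (38.3 CPM). Dntt, the template-free polymerase of receptor joining, stood at 4.44, 0.848 and 12.8 CPM in CD4-positive and at 2.88, 1.37 and 27.1 CPM in CD4-negative libraries. Rag1, a subunit of the recombinase, was at 2.88, 3.07 and 44.8 CPM and at 7.12, 2.13 and 15.6 CPM, with replicate 1 its lowest CD4-positive library. Rag2, the other subunit, reached 4.65 CPM, in CD4-negative replicate 3. Ptcra, the chain of the pre-T cell receptor, was at most 0.992 CPM, in the same library, and Tdrd5 had 0 counts in all 6. Some markers of the list did not have that order. Cd1d1, the lipid-presenting molecule, stood at 10.2, 9.49 and 9.12 CPM in CD4-positive and at 12.7, 12.9 and 13.4 CPM in CD4-negative libraries, so that its groups did not overlap and CD4-positive replicate 3 was its lowest library. Ccr9, a chemokine receptor, was at 2.32, 2.49 and 13.9 CPM in CD4-positive and at 5.08, 1.999 and 4.10 CPM in CD4-negative libraries, with replicate 1 the highest of the latter. Of the 10 markers 8 were tested and none was called in either direction. The part of such cells in the levels of Cd4, Cd8a and Cd8b1 was not tested.

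**Figure D2:**
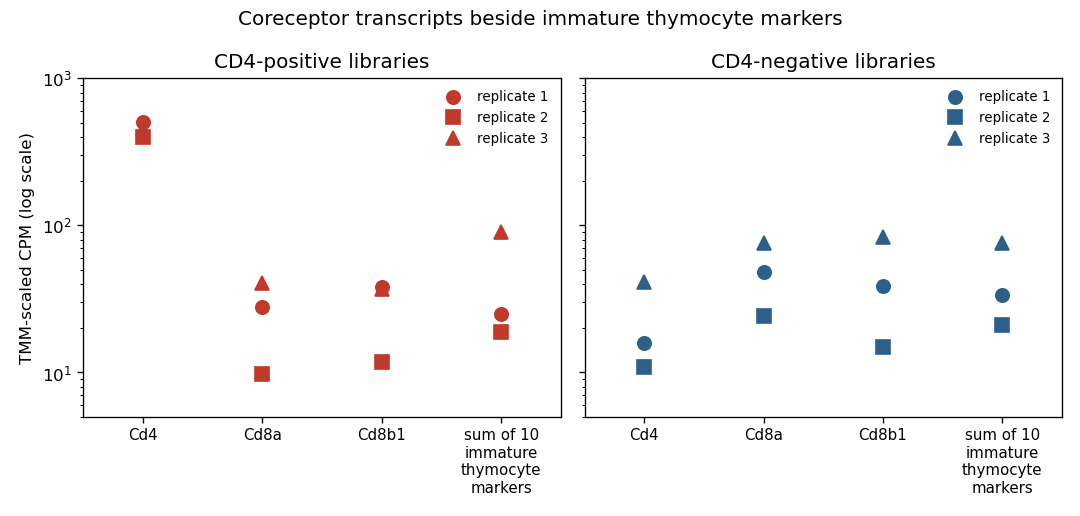
TMM-scaled CPM (log axis) of Cd4, Cd8a, Cd8b1 and the summed 10 immature thymocyte markers in the 3 CD4-positive libraries (left) and the 3 CD4-negative libraries (right), with a marker shape for each replicate. In the CD4-negative libraries replicate 3 is the highest and replicate 2 the lowest in all 4 columns, with Cd4 at 41.2 and 10.9 CPM.

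Other cells that express coreceptors or could enter the sort were looked for by their markers, and no list had a called gene. Dendritic cell and macrophage markers summed to 7.96 to 12.2 CPM in CD4-positive and 12.3 to 24.5 CPM in CD4-negative libraries, with 8 of 12 tested. Of their defining genes Csf1r was at most 0.0925 CPM and Zbtb46 at most 1.36 CPM. Xcr1, a chemokine receptor of cross-presenting dendritic cells and the largest term, was at 7.24, 5.38 and 4.65 CPM in CD4-positive and at 12.2, 8.36 and 16.5 CPM in CD4-negative libraries. Itgax, the CD11c gene, was at 0.0617, 0.0771 and 0 CPM against 0.430, 0.463 and 0.966 CPM. In both genes every CD4-negative library was the higher, and neither passed edgeR's quasi-likelihood test (unadjusted p = 0.00731 and 0.00666, adjusted p = 0.472 and 0.455). Naive mature thymocyte markers summed to 181 to 221 and 204 to 257 CPM (6 of 6 tested). For B cell markers the sums were 55.2 to 79.1 and 110 to 120 CPM (4 of 8 tested), nearly all from Ighm, and Pax5 had 0 counts in all libraries, which allows up to 0.0783 CPM. For NK cell markers they were 234 to 318 and 963 to 2164 CPM (5 of 7 tested), with Gzma as the largest term. The 8 iNKT and NKT1 identity markers, all tested, summed to 2570 to 3770 and 2457 to 3135 CPM, with Il2rb as the largest term. Zbtb16 was at 151, 98.1 and 70.2 CPM in CD4-positive and at 60.0, 63.7 and 62.0 CPM in CD4-negative libraries. Its groups did not overlap (edgeR quasi-likelihood test, unadjusted p = 0.0222, adjusted p = 0.804), nor did those of Trav11, and the other identity markers overlapped. The part of these cells in the levels of the 9 genes was not tested.

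Zbtb7b (chromosome 3, 89377644 to 89394776), the ThPOK gene, was well expressed in both groups. Its values were 168, 174 and 157 CPM in CD4-positive and 158, 160 and 100.2 CPM in CD4-negative libraries. CD4-negative replicates 1 and 2 lay inside the CD4-positive range, and replicate 3 alone was lower. On the log2 scale the groups differed by 0.25 (SE 0.21, edgeR adjusted p = 1.0), and by 0.07 (SE 0.14) without that library.

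Runx3 (chromosome 4, 135120652 to 135177990), the factor opposed to ThPOK, was not higher in the cells that lack CD4. It stood at 230, 258 and 175 CPM in CD4-positive and at 221, 226 and 106 CPM in CD4-negative libraries. Again replicates 1 and 2 of the CD4-negative group lay within the CD4-positive range. The log2 difference was 0.26 (SE 0.31, edgeR adjusted p = 1.0) and -0.013 (SE 0.20) without CD4-negative replicate 3. Counts of Zbtb7b per count of Runx3 were 0.732, 0.677 and 0.894 in CD4-positive and 0.716, 0.707 and 0.946 in CD4-negative libraries. The balance of the 2 transcripts was thus nearly level between the groups at each replicate number, and differed more between replicate 3 and the other libraries than between the groups.

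Runx1 (chromosome 16, 92601466 to 92826149), which represses Cd4 in early thymocytes, was the sole member of the 9 genes besides Cd4 whose groups did not overlap. It stood at 21.8, 24.9 and 22.8 CPM in CD4-positive and at 16.3, 16.2 and 9.74 CPM in CD4-negative libraries. Over all tested genes 4.84% were non-overlapping with CD4-positive higher, and 9.41% in either direction. The groups differed by 0.72 on the log2 scale (SE 0.23), which did not pass edgeR's quasi-likelihood test (unadjusted p = 0.0148, adjusted p = 0.692). Without CD4-negative replicate 3 it was 0.52 (SE 0.16), and among the replicate 1 and 2 libraries 0.53 (SE 0.17). Counts of Runx3 per count of Runx1 were 10.5, 10.3 and 7.70 in CD4-positive and 13.5, 14.003 and 10.9 in CD4-negative libraries. This ratio did not overlap either, and was not tested separately.

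Runx2 (chromosome 17, 44495987 to 44814797), best known from bone formation, pointed the other way. Its levels were 12.3, 19.3 and 13.98 CPM in CD4-positive and 31.5, 29.9 and 15.1 CPM in CD4-negative libraries. The groups overlapped through CD4-negative replicate 3 alone. The log2 difference was -0.75 (SE 0.31, edgeR adjusted p = 1.0), and -1.01 (SE 0.22) without that library. Cbfb (chromosome 8, 105170674 to 105217989), the partner of all Runx factors, was the steadiest of the 9 genes. It was at 244, 238 and 225 CPM in CD4-positive and at 213, 209.95 and 228 CPM in CD4-negative libraries. Its groups differed by 0.12 on the log2 scale (SE 0.14, edgeR adjusted p = 1.0).

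Patz1 (chromosome 11, 3288874 to 3309083) encodes MAZR, a zinc finger protein that represses the CD8 genes and Zbtb7b in thymocytes. It was at 30.9, 35.8 and 39.0 CPM in CD4-positive and at 33.8, 37.5 and 26.9 CPM in CD4-negative libraries, and the groups overlapped. The log2 difference was 0.11 (SE 0.18, edgeR adjusted p = 1.0), and -0.013 without CD4-negative replicate 3. Satb1 (chromosome 17, 51736187 to 51833290) organises chromatin in thymocytes and is needed there for normal expression of both lineage factors and coreceptors. It had the highest CPM of the 6 regulators, with 536, 676 and 560 CPM in CD4-positive and 574, 533 and 378 CPM in CD4-negative libraries. The log2 difference was 0.25 (SE 0.21, edgeR adjusted p = 1.0), and 0.10 without CD4-negative replicate 3. The estimated counts of Satb1 were fractional in 100% of libraries and those of Patz1 in 83.3%, a sign of reads split between genes, and both genes overlap exons of predicted genes (Gm36931 and Gm6934 for Satb1, Gm11944 and Gm12592 for Patz1). Exons of Zbtb7b, Runx1 and Runx2 overlap those of opposite-strand transcripts (Gm15417, Gm26626 and Runx2os1), whose reads can be told apart only if strand was used in counting. The estimated counts of Runx2 were fractional in 66.7% of libraries.

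**Figure D3:**
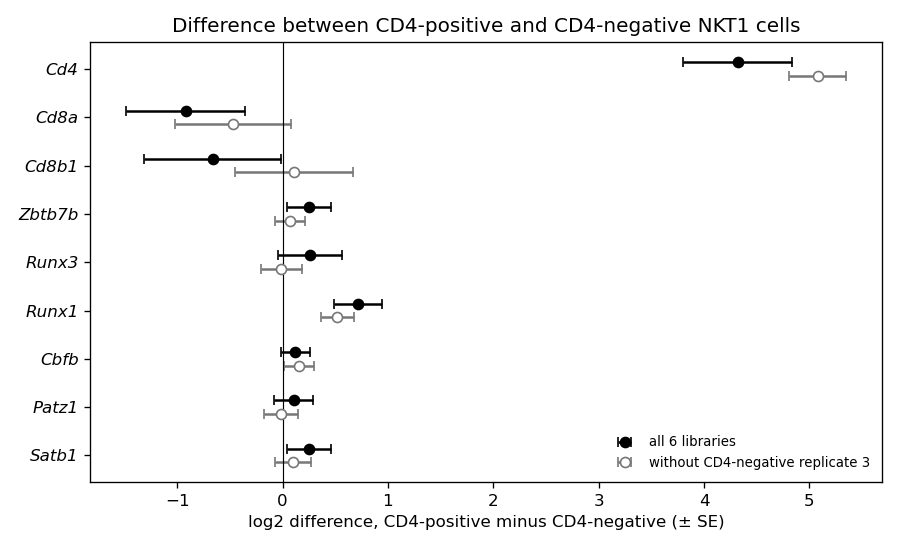
Log2 difference, CD4-positive minus CD4-negative (horizontal axis, with SE), of the 9 genes by edgeR with all 6 libraries (filled) and without CD4-negative replicate 3 (open). Cd4 lies at 4.32 and 5.08, Runx1 at 0.72 and 0.52, and Cd8b1, Runx3 and Patz1 change sign.

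In all, 7 of the 9 genes lay above 0 on the log2 scale of differences and their median was 0.25, against 6242 of 12760 tested genes and a median of -0.0058. Without Cd4 it was 6 of 8 and 0.19. Without CD4-negative replicate 3 it was 6 of the 9 genes with a median of 0.10, against 6858 of 13145 tested genes and a median of 0.014, a setting added after the data were seen. CD4-negative replicate 3, which stood apart as a library, was the lowest of the 6 for 5 of the 6 regulators, Cbfb being the exception. The share of all tested genes that were lowest in this library was not counted, so this is not shown to be particular to the regulators.

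The genes differed widely in how steady they were within a group. The pooled SD of log2 CPM within groups was 1.115 for Cd8b1, 0.96 for Cd8a and 0.71 for Cd4. The median over the 9175 genes whose mean reached 5 CPM was 0.27, and 0.73%, 1.36% and 3.83% of these genes had a larger SD than Cd8b1, Cd8a and Cd4. For Cd4 this rested on CD4-negative replicate 3, without which its SD was 0.26 and 33.9% of the genes had a larger one. For Cd8a and Cd8b1 the SD was then 0.96 and 0.97, with 0.73% and 0.687% of the genes above them and a median over genes of 0.21. The CD8 genes thus varied more within a group than nearly all genes whose mean reached 5 CPM, with or without that library. Genes matched to them in level were not compared separately. Runx3 (0.48), Runx1 (0.31), Zbtb7b (0.28), Satb1 (0.26) and Patz1 (0.21) were closer to that median. For Cbfb the SD was 0.06, and 98.1% of the genes had a larger one.

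Scaled to length (CPM per kb of annotated exon), the order of levels was Cd4, Cbfb, Runx3, Satb1, Zbtb7b, Cd8b1, Cd8a, Patz1 and Runx1 in CD4-positive cells. The means per kb were 112 ± 13.3 (SD, n = 3) for Cd4, 67.7 ± 2.85 for Cbfb and 44.2 ± 8.36 for Runx3, which did not overlap each other. Satb1 (31.0 ± 3.92) overlapped with Runx3 and with Zbtb7b (29.8 ± 1.59), Cd8b1 (19.5 ± 10.1) with Cd8a, and Cd8a (7.18 ± 4.27) with Patz1 (5.97 ± 0.69), while Runx1 (1.93 ± 0.13) was lowest in every library. In CD4-negative cells Cbfb (62.4 ± 2.68) led, and Cd4 stood at 5.63 ± 4.03 per kb, level with Patz1 (5.54 ± 0.91). Runx3 (36.8 ± 13.6), Cd8b1 (30.9 ± 23.5), Satb1 (26.0 ± 5.44) and Zbtb7b (24.9 ± 6.09) overlapped one another there, above Cd8a (13.6 ± 7.12) and Runx1 (1.17 ± 0.31) in their means. Cd8b1 was above Cd8a per kb in all 6 libraries, from 10.05 against 6.61 in CD4-negative replicate 2 to 56.4 against 20.8 in CD4-negative replicate 3. The length is that of all annotated exons together, so a gene with long rare exons, as Runx1 with 12.025 kb, is set lower than its used transcript would be.

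**Figure D4:**
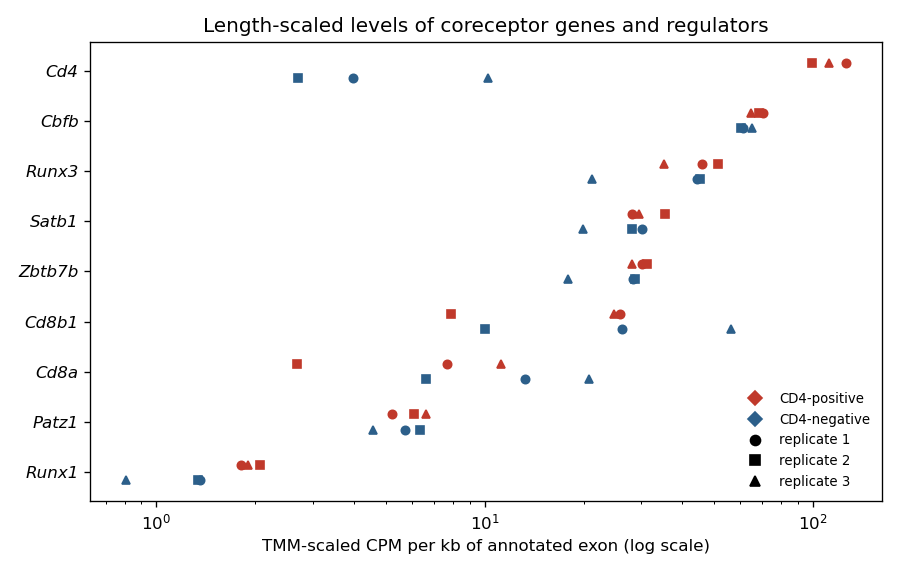
TMM-scaled CPM per kb of annotated exon (horizontal log axis) of the 9 genes, ordered by their CD4-positive mean, in each CD4-positive (red) and CD4-negative (blue) library; marker shapes give the replicate. Cd4 moves from a mean of 112 to one of 5.63 per kb, and Runx1 is the lowest gene in every library.

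A list of 24 other genes of the coreceptor programme covered further transcription factors, chromatin complexes that act at the coreceptor loci, Lck and the phosphatase Ptprc. Of these 23 were tested and none was called in either direction by edgeR's quasi-likelihood test, and 3 were at an unadjusted p under 0.05. Over all tested genes 4.44% were under that p. With limma-voom none was called and 2 were at an unadjusted p under 0.05; DESeq2 on all genes with a count called 1, Tox, where it called 164 of 19410 genes in all. Their median log2 difference was 0.06, with 14 above 0 and 9 below, against -0.0058 over all tested genes, and without CD4-negative replicate 3 it was -0.021, with 10 of the 23 above 0. In 3 the groups did not overlap, all with CD4-positive higher, where over all tested genes 4.84% did so in that direction and 9.41% in either.

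Tox, a factor needed for the CD4 lineage in the thymus, stood at 57.3, 63.3 and 78.6 CPM in CD4-positive and at 31.9, 26.4 and 26.9 CPM in CD4-negative libraries. Every CD4-positive library was above every CD4-negative one, by a log2 difference of 1.22 (SE 0.18, edgeR adjusted p = 0.0590). Without the filter on low counts its adjusted p was 0.0285. Myb, which acts in thymocytes upstream of the lineage factors, was low, at 5.33, 6.84 and 10.7 CPM against 2.65, 1.39 and 4.15 CPM (log2 1.49, SE 0.44, edgeR adjusted p = 0.596). Ets1, which is needed for full Runx3 expression in thymocytes, was at 1263, 1562 and 1420 CPM against 1210, 1198 and 884 CPM (log2 0.37, SE 0.20, edgeR adjusted p = 1.0). These 2 genes had non-overlapping groups too. Runx2, described above, was the remaining one of the 4 with the smallest p. Exons of Tox and Myb overlap those of opposite-strand transcripts too (Gm11802 and Gm26577).

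The genes most like Cd4 and Cd8a were ranked by the mean absolute difference over the 6 libraries of log2 CPM, after each gene's own mean was subtracted, among 8712 genes with a mean of at least 5 CPM. Those nearest to Cd4 were Ccr4 (0.82), a chemokine receptor, Sox13 (1.18), Izumo1r (1.21), the folate receptor 4 gene, Vdr (1.36), the vitamin D receptor, and Asb2 (1.41), against a median of 2.28. That all 5 followed the group difference comes from the ranking itself, since this difference makes up most of the pattern of Cd4. None was as far apart as Cd4. Ccr4 stood at 20.03, 25.8 and 30.2 CPM in CD4-positive and at 3.16, 2.57 and 4.46 CPM in CD4-negative libraries, with its highest CD4-negative value in replicate 3, as for Cd4. Those nearest to Cd8a were Ms4a4c (0.30), Sap25 (0.35), H2-Q10 (0.37), Ldhb (0.39), the heart-type lactate dehydrogenase subunit, and Fam98c (0.39), against a median of 0.78. Its neighbour Cd8b1, measured in the same way, differed from Cd8a by 0.33, and 1 of the 8712 genes, Ms4a4c, was closer. Ms4a4c, picked for its likeness to Cd8a, was like both CD8 genes highest in CD4-negative replicate 3 (15.01 CPM) and lowest in CD4-positive replicate 2 (2.91 CPM).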

How the data were processed

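Polyadenylated RNA of 6 samples was made into stranded TruSeq libraries and read from both ends on a HiSeq4000, per the labels' protocols. The submitters' processing notes list STAR, Picard, RSEM and mm10; which version, annotation or strand setting was used is not given in the sources used here. Estimated counts per gene, not normalised, were deposited by the authors, and were rounded to whole numbers here. Nothing in the labels says that replicates are separate animals; the p-values then reflect differences between libraries that may be technical. Pairs of libraries of a group differed by 55.6 to 400.5 chi-square per degree of freedom, so none was taken as a duplicate. By this measure CD4-positive replicate 1 was far from its group too, at 299 and 311, against 93.1 between CD4-positive replicates 2 and 3. CD4-negative replicate 3 was at 306 and 400.5, against 55.6 between CD4-negative replicates 1 and 2.

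In R 4.3.3 with edgeR 4.0.16, genes were kept by filterByExpr, scaled by TMM and tested by the quasi-likelihood F test (robust form, 2-sided, group as the only term) with Benjamini-Hochberg adjustment over all 12760 genes at 0.05. The SE was taken from the F statistic. Log2 CPM used a prior count of 2. Other settings were DESeq2 1.42.0, RLE or upper-quartile scaling, limma-voom (limma 3.58.1), no filter, a mean of at least 5 CPM, a replicate block, the library naming scheme as a term, single libraries left out, and replicates 1 and 2 alone. The fits were tested on simulated counts, which varied less between libraries than these data and had no library that stood apart. Coordinates, exon lengths and overlaps come from GENCODE release M21 (GRCm38), promoter windows from RefSeq (GRCm38.p6).

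The 9 genes and the lists were chosen with earlier results of these data known. Named were the 9 genes, the called genes of the coreceptor programme list or else its 4 with the smallest p, markers of other cells, and the 5 genes nearest in pattern to Cd4 and Cd8a, leaving out predicted genes, pseudogenes and receptor segments. The limit that a count of 0 allows, 3 counts, is worth 0.0555 to 0.0783 CPM.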

Additional observations from a re-analysis of the deposited data

How the results depend on the processing

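Of 135 values of the 9 genes under 15 alternatives each, 124 kept their direction and their side of the threshold, and 4 changed sign. The remaining 7 were all of Cd4, the only one of the 9 genes called in the main fit, and lost its call. The other genes were far from the threshold, so their staying uncalled says little. Without CD4-negative replicate 3 the log2 difference was 0.11 for Cd8b1, -0.013 for Runx3 and -0.013 for Patz1, and with replicates 1 and 2 alone it was -0.089 for Patz1. Over the 6 libraries left out singly these differences ran from -1.08 to 0.11, from -0.013 to 0.44 and from -0.013 to 0.22. Cd4 kept its direction throughout. Its adjusted p passed the threshold in 8 of the 15 and missed it with the replicate block (log2 4.56, adjusted p = 0.115), with the naming scheme as a term (4.54, adjusted p = 0.0532) and without any 1 library other than CD4-negative replicate 3 (3.99 to 5.08 over all 6). The 9 genes then gave 0 calls instead of 1 (0 to 1 over the libraries left out), with 3 genes at an unadjusted p under 0.05 under the block and 2 with the naming scheme. Under the block the log2 difference of Cd8a was -0.99 (edgeR adjusted p = 0.323). Its SE was 0.18 there, against 0.56 with group as the only term. The coreceptor programme list gave 1 call, Tox, with DESeq2 (log2 1.23) and 1 with no filter on low counts (log2 1.23). The count over all genes, 27, was 164 with DESeq2, 67 with no filter, 0 with the replicate block, 11 with the naming scheme, 9 with replicates 1 and 2 alone and 0 to 44 with 1 library left out. The cause of these changes was not tested. The replicate number marks no stated pairing: deviations from the group means correlated by -0.08, 0.34 and 0.04 between same-numbered libraries, and not every library correlated best with its own number. At this depth 1 count is worth at most 0.0261 CPM.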
